A study of Mus musculus with 5 samples.

Results

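Axon guidance ligands and their receptors were followed here in embryonic mouse MGE (medial ganglionic eminence), a ventral forebrain zone in which many cortical interneurons are born. Members were taken by gene symbol alone: semaphorins, plexins, neuropilins, ephrins, Eph receptors, Slits, Robos, netrins, Unc5 receptors and Dcc. The rule found 69 genes with 152 probe sets among 18193 genes with a single-symbol probe set. They comprised 35 ligands, 33 receptors and Plxna4os1, a transcript from the strand opposite Plxna4 that carries the plexin symbol but is no receptor. The brightest probe set by mean over all arrays stood for each gene, and 48 members were bright enough on average to be tested.

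The 5 Affymetrix mouse expression arrays fell into 4 groups: Dlx1/2 mutant MGE tissue (2 arrays), WT MGE tissue (1 array), primary neuronal cultures from mutant MGE (1 array) and the same cultures from WT MGE (1 array). All 4 groups started from the proliferative zones (ventricular and subventricular) of the rostral MGE at E15.5, and the labels give no strain, no time in culture and no embryo or pool numbers. The mutants lack the homeodomain transcription factors Dlx1 and Dlx2, and the title of the WT tissue array writes its genotype as +/_ where its description says WT. Since nothing says that the 2 mutant tissue arrays came from separate animals, p-values measure how far these arrays scatter, and that scatter may be technical. In tests over both preparations, a difference between the genotype effects in tissue and culture also counts as scatter and widens the SE. The small number of arrays limits precision throughout.

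Guidance molecules steer growing axons and migrating neurons by attraction or repulsion. Class 3 semaphorins are secreted and bind neuropilins, which signal through plexins; other semaphorins are mostly membrane proteins that bind plexins directly. Ephrins are membrane-bound ligands of the Eph receptor tyrosine kinases, Slits are secreted repellents read by Robo receptors, and netrins attract through Dcc and repel through Unc5 receptors. In the ventral forebrain, semaphorin, ephrin and Slit signals are known for guiding interneurons out of the MGE and around the striatum.

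Upstream sequence is shown for 2 of the 3 members that differed with genotype across tissue and culture, Epha5 and Robo1, and for Nrp2, chosen after its values were seen because it had the highest difference in tissue. Each run covers the 250 bases before the annotated gene start in RefSeq (GRCm38.p6), written 5′ to 3′ on the gene's strand, with the letters TAATTA, a core bound by many homeodomain factors, in capitals. The windows are chr5:84417383-84417632 (minus strand) for Epha5, chr16:72662899-72663148 (plus strand) for Robo1 and chr1:62703067-62703316 (plus strand) for Nrp2.
Epha5: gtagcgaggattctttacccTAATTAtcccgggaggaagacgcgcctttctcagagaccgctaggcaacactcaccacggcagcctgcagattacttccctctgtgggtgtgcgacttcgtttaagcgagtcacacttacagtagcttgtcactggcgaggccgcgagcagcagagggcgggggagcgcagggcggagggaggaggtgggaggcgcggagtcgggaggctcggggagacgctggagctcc
Robo1: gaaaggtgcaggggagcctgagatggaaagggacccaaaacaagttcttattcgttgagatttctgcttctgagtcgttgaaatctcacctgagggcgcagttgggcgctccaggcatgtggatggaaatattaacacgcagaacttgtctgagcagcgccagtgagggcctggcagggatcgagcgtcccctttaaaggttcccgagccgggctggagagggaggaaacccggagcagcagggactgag
Nrp2: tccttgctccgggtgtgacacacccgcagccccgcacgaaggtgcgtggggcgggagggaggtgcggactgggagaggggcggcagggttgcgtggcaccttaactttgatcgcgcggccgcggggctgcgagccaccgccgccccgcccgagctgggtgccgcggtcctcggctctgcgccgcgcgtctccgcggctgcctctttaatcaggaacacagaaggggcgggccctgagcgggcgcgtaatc
The 6 letters read the same on both strands, so 1 search covered both, and no other motif was searched. They occurred in the window of 5.65% of 27025 genes in the table and in 3 of the 58 members it holds (5.17%), Epha5, Efna1 and Robo3. In the Epha5 window they begin 230 bases before the start. A match is a description of letters, not a binding site.

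The targeted genes followed the labels. Dlx1 lay at the floor (a log2 signal of 2.36, set at the 20th percentile of all values) in the 3 mutant arrays, against log2 11.64 in WT tissue and 9.23 in WT culture. Dlx2 stayed above the floor in every mutant array, with log2 4.22 and 3.61 in tissue and 4.47 in culture. Its WT levels were 10.08 in tissue and 8.41 in culture. Array medians ranged from 26.2 to 29.8 in deposited signal before normalization, and the log2 difference between the 2 mutant tissue arrays had an SD of 0.324 across tested genes. All 7 MGE and interneuron markers with a probe set were above the floor in all arrays, but in mutant tissue 4 fell and 0 rose, against 6.70% of all genes tested that fell: Slc32a1, the vesicular GABA transporter gene (−4.72 ± 0.30, adjusted p = 1.3e-06), Lhx8 (−3.24 ± 0.13, adjusted p = 3e-08), Gad2 (−0.63 ± 0.12, adjusted p = 0.0037) and Lhx6 (−0.54 ± 0.09, adjusted p = 0.0021). The summed normalized signal of all 7 markers was 2866 and 2987 in mutant tissue, against 5532 in WT tissue. It was 2033 in mutant culture, against 3722 in WT culture. Sox6, Gad1 and Nkx2-1 did not pass in tissue. Nkx2-1, which specifies the MGE, was dim, with log2 levels of 5.90 and 6.23 in mutant tissue, 5.36 in WT tissue, 3.63 in mutant culture and 4.09 in WT culture. Markers of other cells moved with genotype or preparation. In mutant tissue 7 of 11 young neuron markers rose and 1 fell, against 8.59% and 6.70% of all genes tested. The summed normalized signals of these markers were 19599 and 20115 in mutant tissue and 15207 in WT tissue, with no marker at the floor. In culture their median difference was 0.04 (log2), with 6 markers above 0 and 5 below. Of 13 progenitor and cell cycle genes, the proliferation genes Mki67, Top2a, Cdk1, Mcm2 and Pcna fell in mutant tissue and Nes, Sox2 and Fabp7 rose, with no marker at the floor. The summed normalized signal of 10 diencephalic and septal genes was 1681 and 1821 in mutant tissue and 804.3 in WT tissue, with 2, 2 and 1 genes at the floor. Of the 5 tested, 4 lay above 0 and 1 below. All 5 oligodendrocyte lineage genes and all 6 astrocyte genes tested lay above 0 in tissue, with median differences of 1.49 and 0.65. The part of these shifts in the differences below was not tested. In bulk samples, fewer cells of a type and less RNA per cell cannot be told apart.

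In MGE tissue, guidance genes were mostly higher in the mutants where they differed. Of the 48 members tested, 11 rose and 1 fell, 25.0% of them, where 15.3% of all genes tested were called, 8.59% higher and 6.70% lower. By role, 4 of 27 ligands rose (Sema3e, Sema6d, Efnb3 and Slit1), 7 of 21 receptors rose (Nrp2, Nrp1, Plxnc1, Robo1, Unc5b, Unc5c and Dcc) and 1 receptor, Epha5, fell. The median difference was 0.10 (log2) over the members tested and 0.001 over all genes tested. Here and below, differences are mutant minus WT on the log2 scale of normalized signal with the standard error (SE) of limma's fit, a call is a Benjamini-Hochberg adjusted p under 0.05 over all 11063 genes tested, and levels quoted as signal are the deposited linear values. All tissue differences rest on 1 WT array, which is assumed to vary like the mutant pair. Of the 12 calls 0 held when limma's prior variance ignored intensity and 0 when dim genes were tested too, with 15 of 48 and 20 of 69 members at an unadjusted p under 0.05, against 22.5% and 17.3% of all genes tested there. At least 2-fold apart in tissue were 5 of 48 members (10.4%, against 4.92% of all genes tested), Nrp2, Sema3e, Unc5c, Unc5b and Sema6d. All 5 were higher, and 0 members were lower at that fold, against 1.92% of all genes.

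**Figure D1:**
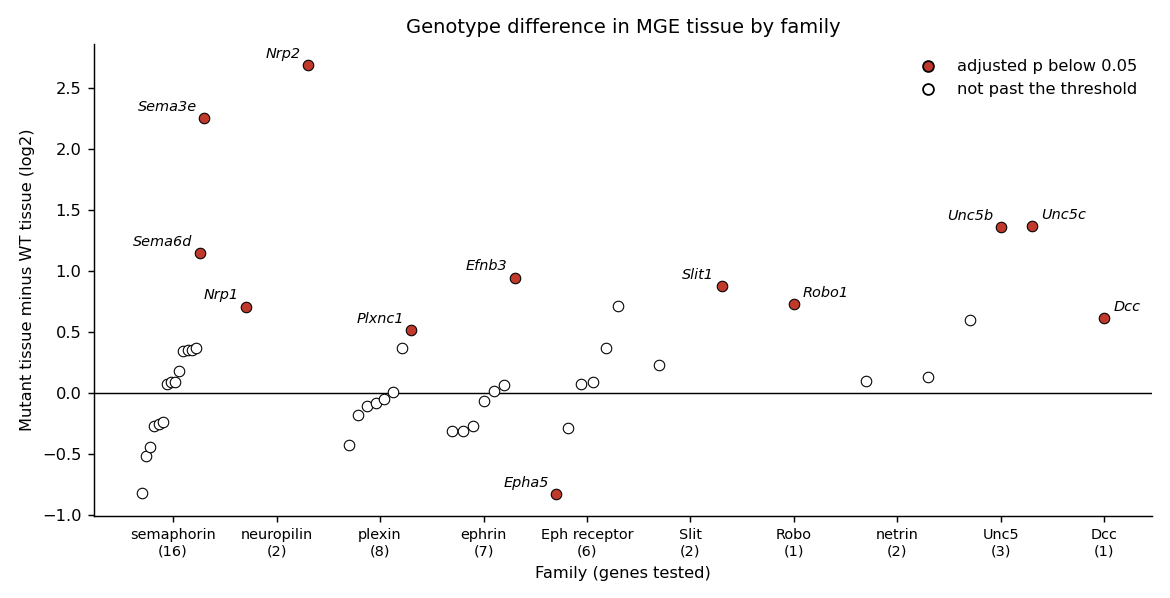
Mutant tissue minus WT tissue (log2, y axis) for each of the 48 tested genes, grouped by family along the x axis with the number tested in brackets; filled points passed an adjusted p of 0.05 in limma. The 11 filled points above 0 come from 8 of the 10 families, and the 1 below 0 is Epha5.

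The neuropilins, the ligand-binding receptors of class 3 semaphorins, both rose in mutant tissue. Nrp2, described in earlier work as a gene that Dlx1 and Dlx2 repress directly, had signals of 219 and 199 in mutant tissue, against 33.5 in WT tissue. In culture its signal was 109 in the mutant and 74.1 in WT. Both mutant tissue arrays thus lay far above the WT tissue array, while the culture arrays were closer together. Nrp2 rose by 2.69 ± 0.22 (6.45-fold, adjusted p = 9.7e-06) in tissue and differed by 0.50 in culture, and at its 2 other bright probe sets the tissue difference was 1.77 and 2.26. The effect in culture was smaller than in tissue by the test of the difference itself (−2.19 ± 0.35, adjusted p = 0.0093). Nrp1 had signals of 745 and 733 in mutant tissue, against 444 in WT tissue, and of 682 in mutant culture, against 540 in WT culture. It rose by 0.71 ± 0.11 in tissue (1.64-fold, adjusted p = 0.00085) and differed by 0.33 in culture. Across both preparations neither passed (Nrp2 1.75 ± 0.43, adjusted p = 0.13; Nrp1 0.55 ± 0.12, adjusted p = 0.10). With a gene's probe sets averaged, the tissue call of Nrp2 stayed (adjusted p = 0.049) and that of Nrp1 was lost (0.49, adjusted p = 0.11), 1 of its other 3 probe sets above the filter differing by −0.09.

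Among 16 semaphorins tested, 2 rose in mutant tissue, where 8.59% of all genes tested rose. Across both preparations 0 passed, and 3 had an unadjusted p under 0.05, as did 1443 of all 11063 genes tested. Sema3e, a class 3 semaphorin that can bind plexin D1 without a neuropilin, had signals of 67.7 and 75.1 in mutant tissue, against 15.48 in WT tissue, and of 131 in mutant culture, against 148 in WT culture. WT tissue was the low array, and the other 4 were higher. The rise in tissue was 2.26 ± 0.37 (4.78-fold, adjusted p = 0.0014), with 2.68 at its other bright probe set, and the culture difference was −0.18. Culture and tissue effects differed (−2.44 ± 0.42, adjusted p = 0.013). Plxnd1, the receptor gene for Sema3e, was too dim to be tested, with log2 levels of 4.02 and 5.19 in mutant tissue, 4.89 in WT tissue, 4.12 in mutant culture and 5.26 in WT culture.

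Sema6d, a transmembrane semaphorin, showed the same order at a brighter probe set, with signals of 1339 and 1241 in mutant tissue, against 585 in WT tissue, and of 1396 in mutant culture, against 1445 in WT culture. It rose by 1.15 ± 0.10 in tissue (2.22-fold, adjusted p = 1.3e-05) and differed by −0.04 in culture, and the 2 effects differed (−1.19 ± 0.14, adjusted p = 0.0030). Its other 2 probe sets above the filter differed by 1.77 and −0.46 in tissue, and the call was lost when probe sets were averaged (0.64, adjusted p = 0.14).

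Sema3a and Sema3f, the secreted repellents known from interneuron sorting around the striatum, did not pass in tissue and had opposite differences in culture. Sema3a had signals of 78.7 and 73.4 in mutant tissue, against 59.4 in WT tissue, and of 69.6 in mutant culture, against 186 in WT culture. WT culture was the high array. The difference was 0.35 ± 0.28 in tissue (adjusted p = 0.44) and −1.44 in culture, and the effects differed by −1.79 ± 0.38 (adjusted p = 0.030). Sema3f had signals of 21.4 and 53.6 in mutant tissue, against 60.2 in WT tissue, and of 96.6 in mutant culture, against 16.4 in WT culture. The 2 mutant tissue arrays disagreed by 1.30 on the log2 scale, so its tissue difference of −0.82 ± 0.50 (adjusted p = 0.30) was −0.17 without mutant tissue replicate 1 and −1.44 without replicate 2. In culture it differed by 2.52, and the effects differed by 3.33 ± 0.79 (adjusted p = 0.045). The other 12 semaphorins tested had tissue differences between −0.52 (Sema7a) and 0.37 (Sema6a), and 0 passed. Sema7a had signals of 108 and 102 in mutant tissue, against 144 in WT tissue, and of 134 in mutant culture, against 168 in WT culture. Sema3b, Sema3d, Sema3g and Sema6b were below the intensity filter. Of these, Sema6b had signals of 41.2 and 20.4 in mutant tissue, against 8.09 in WT tissue, and of 42.2 in mutant culture, against 50 in WT culture, so that WT tissue was the low array.

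Of the 8 plexins tested, the signalling receptors for semaphorins, Plxnc1, the receptor of the membrane-anchored Sema7a, was the 1 that rose in tissue. Its signals were 507 and 481 in mutant tissue, against 337 in WT tissue, and 508 in mutant culture, against 319 in WT culture. Mutant arrays lay above their WT array in both preparations, with 0.52 ± 0.12 in tissue (1.43-fold, adjusted p = 0.014), 0.65 in culture and 0.58 ± 0.12 across both (adjusted p = 0.080). All 3 of its other probe sets above the filter also differed upwards in tissue, by 0.23 to 0.60, although averaging with its dim probe sets ended the call (0.47, adjusted p = 0.30). Sema7a itself differed by −0.44 ± 0.17 across both preparations (adjusted p = 0.33). Plxnb3 had signals of 132 and 35.8 in mutant tissue, against 68.2 in WT tissue, and of 46.3 in mutant culture, against 115 in WT culture. It differed by −1.33 in culture at its brightest probe set and by 1.88 at its other, dimmer one, and its mutant tissue arrays differed from each other by 1.88, so its direction is uncertain. Plxna1, Plxna2, Plxna3, Plxna4, Plxnb1 and Plxnb2 had tissue differences between −0.43 and 0.37, none past the threshold.

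**Figure D2:**
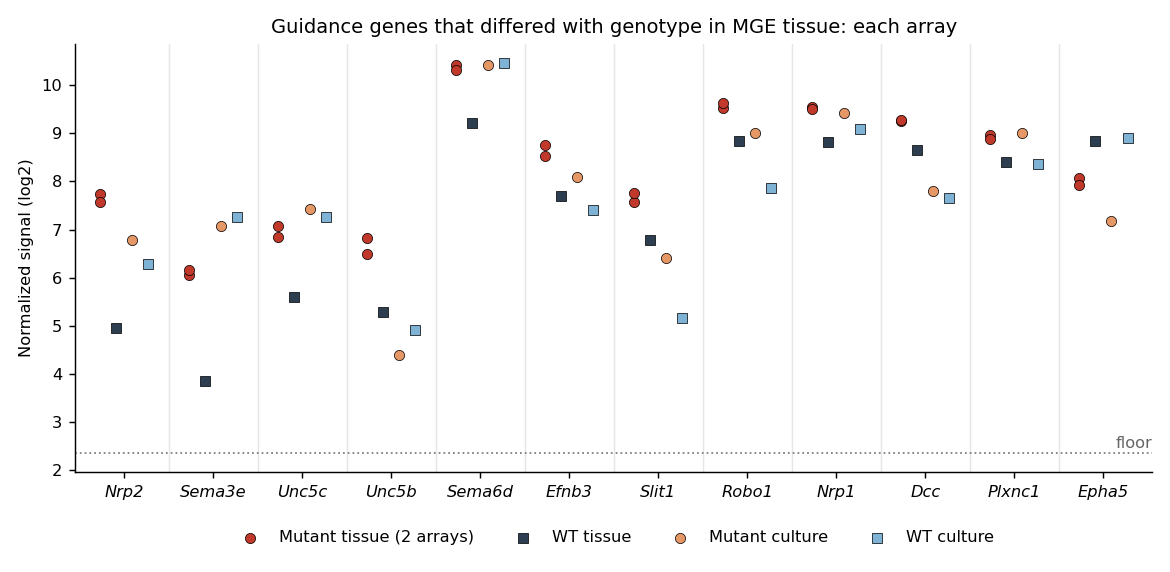
Normalized signal (log2, y axis) in each of the 5 arrays for the 12 genes called in tissue, ordered by their tissue difference; circles are mutant arrays, squares WT arrays, and the dotted line is the floor of 2.36. Levels are to be read within a gene, since probe sets differ in brightness. Both mutant tissue arrays lie above the WT tissue array for 11 genes and below it for Epha5, while WT culture lies above mutant culture for Sema3e, Unc5b, Sema6d and Epha5.

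Slit1 and Robo1, a repellent ligand and its receptor, were both higher in mutants in tissue and in culture. Robo1 had signals of 738 and 796 in mutant tissue, against 454 in WT tissue, and of 507 in mutant culture, against 228 in WT culture. Every mutant array exceeded its WT array. The rise was 0.74 ± 0.11 in tissue (adjusted p = 0.00080), 1.13 in culture and 0.90 ± 0.13 across both preparations (1.87-fold, adjusted p = 0.025), and its 1 other bright probe set gave 1.46 across both. Slit1 had signals of 194 and 226 in mutant tissue, against 110 in WT tissue, and of 83.4 in mutant culture, against 33.4 in WT culture. It rose by 0.88 ± 0.18 in tissue (1.84-fold, adjusted p = 0.0067) and differed by 1.26 in culture. Across both preparations it differed by 1.04 ± 0.20 and just missed the threshold (adjusted p = 0.055, 0.049 with the deposited scaling and 0.047 with a pseudocount in place of a floor). At the other bright Slit1 probe set the differences were 0.24 in tissue and 0.12 in culture. Slit2, the closely related ligand, differed by 0.24 ± 0.17 in tissue and 0.16 in culture (adjusted p = 0.55 across both).

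The remaining Slit and Robo genes were below the intensity filter and untested. Robo2, another Slit receptor, ran opposite to Robo1 in direction, with signals of 12.8 and 16.8 in mutant tissue, against 38.9 in WT tissue, and of 12.4 in mutant culture, against 21.6 in WT culture. Both mutant groups lay below their WT array on the 1 probe set it has. Robo4, known from endothelium, had log2 levels of 5.56 and 5.97 in mutant tissue, 5.91 in WT tissue and 4.03 in mutant culture, and lay at the floor in WT culture, a culture difference of at least 3.16-fold. The summed normalized signal of 8 endothelial markers was 814.9 and 904.4 in mutant tissue, 987.7 in WT tissue, 223.5 in mutant culture and 183.8 in WT culture. Slit3 was at the floor in all tissue arrays, with log2 4.37 in mutant culture and 4.85 in WT culture.

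Across both preparations, 3 of 48 members passed, 2 higher and 1 lower (6.25%), where 1.07% of all genes tested were called, 0.814% higher and 0.253% lower. They were Robo1, the ephrin gene Efnb3 and the Eph receptor gene Epha5, and 15 of 48 members had an unadjusted p under 0.05, against 13.0% of all genes tested. The median difference was 0.14 over the members tested and −0.001 over all genes tested. In 20 members all 3 mutant arrays lay above their WT array (41.7%, against 22.9% of all genes tested), and in 9 all lay below it (18.8%, against 20.6%). Without either mutant tissue replicate 0 of the 3 calls remained: the adjusted p of Robo1 was 0.10 and 0.14, of Efnb3 0.19 and 0.25, and of Epha5 0.081 and 0.14, without replicates 1 and 2 in that order, with 13 and 12 of 49 members at an unadjusted p under 0.05, against 7.45% and 7.31% of all genes tested. Averaging probe sets, ignoring intensity in the prior variance and testing dim genes too likewise left 0, with 14 of 41, 12 of 48 and 13 of 69 members at an unadjusted p under 0.05, against 11.9%, 11.5% and 9.42% of all genes tested.

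**Figure D3:**
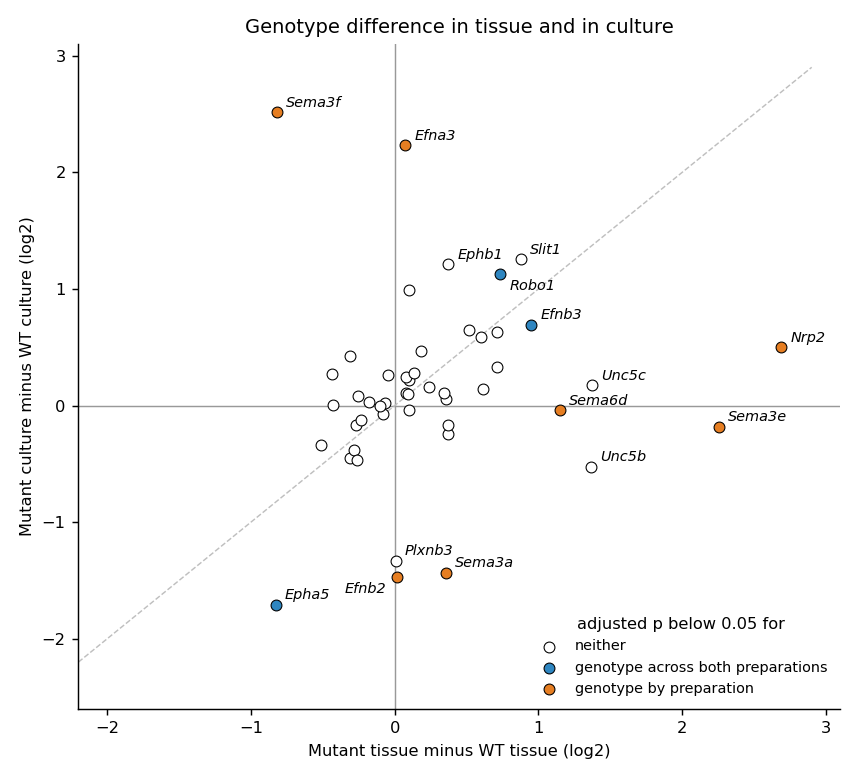
Genotype difference in tissue (x axis, log2, 2 mutant arrays minus 1 WT array) against that in culture (y axis, log2, 1 array minus 1 array) for the 48 tested genes; the dashed line marks equal differences, blue points passed across both preparations and orange points passed the test of the difference between preparations. Robo1, Efnb3 and Epha5 lie on the same side of 0 on both axes, while Nrp2, Sema3e and Sema6d are high in tissue and near 0.50, −0.18 and −0.04 in culture.

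Of the 7 ephrins and 6 Eph receptors tested, 1 of each passed by genotype. Efnb3, a transmembrane ephrin, had signals of 374 and 446 in mutant tissue, against 206 in WT tissue, and of 270 in mutant culture, against 164 in WT culture. All mutant arrays exceeded their WT array. The rise was 0.95 ± 0.15 in tissue (1.93-fold, adjusted p = 0.00098), 0.69 in culture and 0.84 ± 0.15 across both (adjusted p = 0.046), on 1 probe set. Efnb2, another transmembrane ephrin, had signals of 436 and 418 in mutant tissue, against 412 in WT tissue, and of 322 in mutant culture, against 924 in WT culture. The tissue arrays were close together, and WT culture stood above the other 4. The difference was 0.02 ± 0.12 in tissue and −1.47 in culture, and the 2 differed (−1.49 ± 0.18, adjusted p = 0.0033). All 4 Efnb2 probe sets differed downwards in culture, by −1.34 to −1.66. Efnb1 differed by −0.23 ± 0.15 across both (adjusted p = 0.56), with 1 of its 3 probe sets opposite in sign.

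Of the GPI-anchored ephrin-A genes, 0 of 4 tested passed by genotype in tissue or across both preparations, and 0 had an unadjusted p under 0.05. Efna3 had signals of 57.3 and 56.6 in mutant tissue, against 54.7 in WT tissue, and of 76.2 in mutant culture, against 15.8 in WT culture. WT culture was the low array. Its effects differed between preparations (2.16 ± 0.52, adjusted p = 0.049), a call that was lost with a pseudocount in place of a floor (1.47, adjusted p = 0.051), and its brightest probe set gave 2.23 in culture where the other gave 0.26. Efna5, a repellent in forebrain axon and neuron sorting, had signals of 231 and 245 in mutant tissue, against 286 in WT tissue, and of 222 in mutant culture, against 164 in WT culture. It differed by −0.31 ± 0.15 in tissue (adjusted p = 0.19) and by 0.42 in culture. Efna1 was below the filter, and lay at the floor in both culture arrays.

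Epha5, a receptor for ephrin-A ligands, was the 1 tested guidance gene called lower by genotype in tissue and across both preparations. Its signals were 275 and 254 in mutant tissue, against 449 in WT tissue, and 142 in mutant culture, against 470 in WT culture. The mutant arrays lay below both WT arrays. The fall was −0.83 ± 0.14 in tissue (1.77-fold, adjusted p = 0.0018), −1.71 in culture and −1.20 ± 0.20 across both (adjusted p = 0.041), and the test of the difference between preparations missed the threshold (−0.88 ± 0.22, adjusted p = 0.053) but passed it with the deposited scaling (−0.96, adjusted p = 0.014), a lower floor (adjusted p = 0.046) and a pseudocount in place of a floor (adjusted p = 0.044). Of its other 3 bright probe sets, 2 differed downwards in tissue and culture, and 1 differed by 0.86 in tissue and −0.92 in culture.

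Epha4, a receptor for both ephrin classes, had signals of 1570.0 and 2144 in mutant tissue, against 1830.0 in WT tissue, and of 701 in mutant culture, against 589 in WT culture. The brightest probe set gave 0.08 ± 0.15 in tissue and 0.25 in culture, and the other 4 gave −0.18 to −0.54 in tissue, so it has no settled direction there. Epha7 differed by 0.71 ± 0.23 in tissue and 0.68 ± 0.20 across both (adjusted p = 0.054 and 0.20), its 3 other probe sets gave 1.02 to 1.64 in tissue, and it passed in tissue with probe sets averaged (1.19, adjusted p = 0.044), with the deposited scaling (0.76, adjusted p = 0.024) and with a lower floor (adjusted p = 0.048). Ephb1 had signals of 553 and 495 in mutant tissue, against 395 in WT tissue, and of 324 in mutant culture, against 138 in WT culture. It differed by 0.37 ± 0.13 in tissue (adjusted p = 0.066) and by 1.21 in culture. With the deposited scaling it passed in tissue (0.40, adjusted p = 0.021), and the difference between preparations passed with that scaling (0.83, adjusted p = 0.023), a lower floor (adjusted p = 0.046) and a pseudocount in place of a floor (adjusted p = 0.047). Epha3 and Ephb3 differed by 0.10 and −0.29 in tissue. Among the 7 Eph receptor genes below the filter, Epha8 had signals of 6.49 and 6.42 in mutant tissue, against 30.4 in WT tissue, and of 3.08 in mutant culture, against 23.3 in WT culture. All 3 of its mutant arrays lay below both WT arrays, and mutant culture was at the floor, a culture level at least 4.79-fold lower that was not tested.

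Of 3 Unc5 receptors tested, which mediate repulsion from netrins, 2 rose in mutant tissue, and of 2 netrins tested 0 passed by genotype in tissue or across both, with 0 at an unadjusted p under 0.05. Unc5c had signals of 138 and 122 in mutant tissue, against 50.3 in WT tissue, and of 168 in mutant culture, against 148 in WT culture. Unc5b had signals of 91.8 and 119 in mutant tissue, against 41.3 in WT tissue, and of 20.7 in mutant culture, against 28.4 in WT culture. Mutant tissue exceeded WT tissue for both, and the culture arrays lay closer together. Unc5c rose by 1.37 ± 0.24 (2.59-fold, adjusted p = 0.0023) and Unc5b by 1.37 ± 0.28 (2.58-fold, adjusted p = 0.0056) in tissue, with 3.03 and 2.05 at their other probe sets, that of Unc5c being at the floor in WT tissue. In culture they differed by 0.17 and −0.52, and the tests of the difference between preparations did not pass (adjusted p = 0.079 for Unc5c and 0.080 for Unc5b). At their other probe sets the culture difference was 0.365 for Unc5c and 0.67 for Unc5b, so the sign of Unc5b in culture depends on the probe set. Unc5d had signals of 128 and 132 in mutant tissue, against 83.4 in WT tissue, and of 171 in mutant culture, against 112 in WT culture. It differed by 0.60 ± 0.21 in tissue (adjusted p = 0.083) and 0.58 in culture. Unc5a was below the filter: it was at the floor in WT tissue and both cultures and had signals of 30.4 and 31.2 in mutant tissue, an untested difference of at least 5.91-fold.

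Dcc, the attractive netrin receptor, had signals of 618 and 633 in mutant tissue, against 402 in WT tissue, and of 219 in mutant culture, against 196 in WT culture. It rose by 0.62 ± 0.11 in tissue (1.53-fold, adjusted p = 0.0030) and differed by 0.14 in culture. Its 2 other bright probe sets gave 0.32 and −0.72 in tissue, and with probe sets averaged the call was lost (0.07, adjusted p = 0.78). Ntn1, the secreted netrin best known for attracting axons, had signals of 384 and 381 in mutant tissue, against 341 in WT tissue, and of 746 in mutant culture, against 616 in WT culture. It differed by 0.13 ± 0.13 in tissue and 0.28 in culture (adjusted p = 0.55 in tissue and 0.51 across both). Ntn4 differed by 0.10 ± 0.19 in tissue and −0.04 in culture, and Ntn3 and Ntn5 were below the filter with 2 and 4 arrays at the floor.

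**Figure D4:**
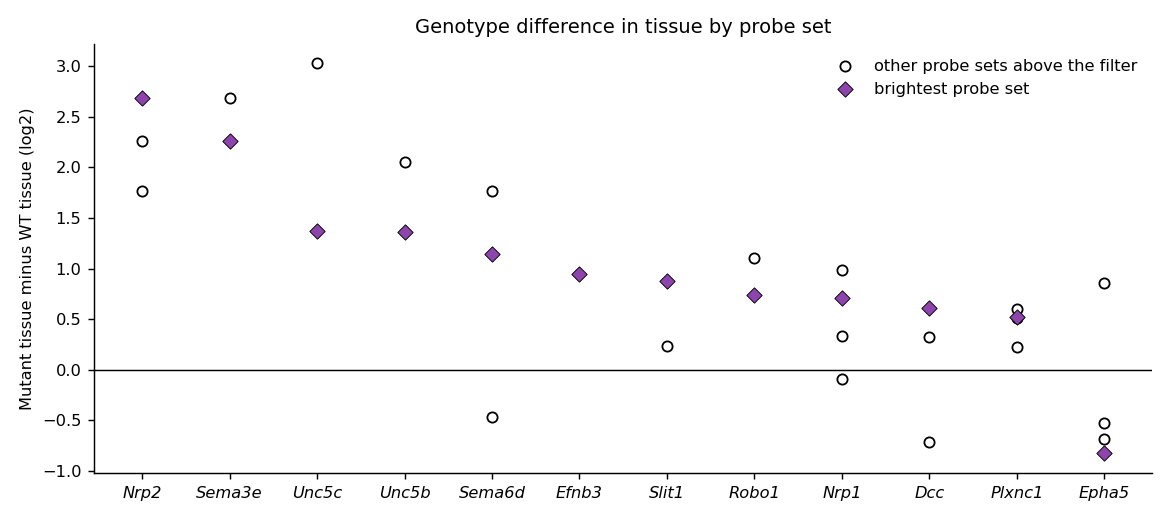
Mutant tissue minus WT tissue (log2, y axis) at the brightest probe set (diamonds) and at other probe sets above the intensity filter (open circles) of the 12 genes called in tissue. Nrp2, Sema3e, Unc5c, Unc5b, Slit1, Robo1 and Plxnc1 have all probe sets on one side, Efnb3 has 1 probe set, and Sema6d, Nrp1, Dcc and Epha5 each have 1 probe set opposite in sign.

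The 21 members below the filter were Efna1, Epha1, Epha2, Epha6, Epha8, Epha10, Ephb4, Ephb6, Ntn3, Ntn5, Plxna4os1, Plxnd1, Robo2, Robo3, Robo4, Sema3b, Sema3d, Sema3g, Sema6b, Slit3 and Unc5a. Of these, 7 were at least 2-fold apart in tissue and 6 in culture, without a test. The share among all genes below the filter was not counted, so these counts do not single out guidance genes. Epha2 had signals of 33.8 and 31.5 in mutant tissue, against 9.48 in WT tissue, and of 24 in mutant culture, against 26.2 in WT culture, and WT tissue was the low array. Epha10 had signals of 13.8 and 6.71 in mutant tissue, against 6.54 in WT tissue, and of 7.98 in mutant culture, against 31.6 in WT culture, and WT culture was the high one. Plxna4os1 was at the floor in all tissue arrays.

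Probe sets of a gene agreed in sign more often across both preparations than in tissue alone. In the 28 tested members with another probe set above the filter, 40 of 49 such probe sets had the sign of the brightest one across both preparations, 34 of 49 in tissue and 39 of 49 for culture minus tissue. Averaging probe sets left 5 tissue calls, all higher: Nrp2, Unc5b, Unc5c and Efnb3 among the 12, and Epha7. Sema3e was then too dim on average to test, and the other 7 no longer passed.

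In culture, where 1 mutant array was set against 1 WT array with no replicate, 9 of 48 members (18.8%) differed by at least 2-fold, where 3.68% of all genes tested did. Higher in mutant culture were Sema3f, Efna3, Slit1, Ephb1 and Robo1 (10.4%, against 1.85% of all genes tested), and lower were Epha5, Efnb2, Sema3a and Plxnb3 (8.33%, against 1.83%). The median culture difference was 0.10 over the members and 0.009 over all genes tested. Of the 12 tissue calls, 9 had the same sign in culture (75.0%, against 58.5% of the 1691 genes called in tissue), the exceptions being Sema3e, Sema6d and Unc5b. For Unc5b this holds at the brightest probe set, and its other bright probe set differed by 0.67 in culture. The test of the difference between preparations passed for 7 members (14.6%, against 4.48% of all genes tested): Nrp2, Sema3e, Sema6d, Sema3a and Efnb2 with a lower culture effect (10.4%, against 2.27%) and Sema3f and Efna3 with a higher one (4.17%, against 2.21%). This test has 1 residual degree of freedom, and 0 of the 7 held when the prior variance ignored intensity, with probe sets averaged (Sema3a, Sema3e and Sema3f being too dim on average to test there) or with dim genes tested too (14 of 48, 8 of 41 and 19 of 69 members at an unadjusted p under 0.05, against 15.2%, 15.4% and 16.3% of all genes tested). In the last setting 1 other member passed, Ntn5, which is at the floor in 4 arrays.

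Culture and tissue differed more than the genotypes did. Fitted over both genotypes, 7 members were higher and 14 lower in culture (43.8%, against 38.8% of all genes tested), with lower calls in 29.2% of members against 19.2% of all genes, and higher calls in 14.6% against 19.6%. All 21 had the same sign in both genotypes, which choosing them by a fit over both genotypes favours. At least 2-fold apart were 9 members higher and 9 lower between the WT arrays (18.8% each, against 9.73% and 6.78% of all genes tested), and 4 higher and 8 lower between the mutant groups (8.33% and 16.7%, against 9.10% and 6.57%). Of the 7 higher genes, 6 were ligands, the secreted Sema3c, Sema3e, Slit2, Ntn1 and Ntn4 and the membrane-bound Sema4d. The receptor was Unc5c. These were 6 of 27 ligands and 1 of 21 receptors tested, where 19.6% of all genes tested were higher. Sema3c had log2 levels of 8.31 in mutant culture and 8.20 in WT culture, against 6.16 and 5.72 in mutant tissue and 5.86 in WT tissue, a rise of 2.35 ± 0.20 (5.11-fold, adjusted p = 0.00011). Slit2 had log2 levels of 9.51 in mutant culture and 9.35 in WT culture, against 8.04 and 7.79 in mutant tissue and 7.68 in WT tissue, a rise of 1.63 ± 0.14 (adjusted p = 0.00010). No culture array overlapped a tissue array for either gene. Ntn1, whose arrays are given above, rose by 0.93 ± 0.12 (adjusted p = 0.00067). Ntn4, a basement membrane netrin, had signals of 349 in mutant culture and 362 in WT culture, against 169 and 149 in mutant tissue and 141 in WT tissue, and Sema4d, a ligand of plexin B1, had signals of 164 in mutant culture and 116 in WT culture, against 105 and 85.8 in mutant tissue and 81.2 in WT tissue. Both cultures lay above all tissue arrays for each of the 3.

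In culture 7 of 21 receptors were lower and 1 higher, and 7 of 27 ligands were lower and 6 higher. Of all genes tested, 19.2% were lower and 19.6% higher. Whether the 2 roles differ was not tested. Epha3, a receptor for ephrin-A ligands, had signals of 308 in mutant culture and 263 in WT culture, against 955 and 851 in mutant tissue and 828 in WT tissue. The culture arrays were lower than every tissue array. Epha3 fell by 1.58 on the log2 scale (SE 0.12, 2.99-fold, adjusted p = 6.3e-05) and Epha4 by 1.52 (SE 0.15, 2.87-fold, adjusted p = 0.00019). All 4 other Epha4 probe sets and all 3 other Epha3 probe sets above the filter were lower in culture too, with differences of −1.40 to −2.09. The 6 Eph receptors tested all lay below 0, with Ephb1 the 3rd to pass, and 6 of 7 ephrins did, of which Efna2, Efna4 and Efnb3 passed. The ephrin gene Efna2 had signals of 169.5 in mutant culture and 166 in WT culture, against 378 and 351 in mutant tissue and 369 in WT tissue, and Efna4 had signals of 32.5 in mutant culture and 42.9 in WT culture, against 80 and 68.5 in mutant tissue and 88.9 in WT tissue. For Efna2 and Efna4 no culture array reached a tissue array. Plxna2, a plexin for class 6 and class 3 semaphorins, had signals of 514 in mutant culture and 522 in WT culture, against 1004 and 976 in mutant tissue and 1062 in WT tissue. Sema4c had signals of 97.7 in mutant culture and 134 in WT culture, against 234 and 195 in mutant tissue and 246 in WT tissue. Sema5b had signals of 88.4 in mutant culture and 81.7 in WT culture, against 164 and 137 in mutant tissue and 171 in WT tissue, and culture was again the lower preparation in both genotypes. Sema4g had signals of 58.4 in mutant culture and 61.9 in WT culture, against 98.3 and 86.1 in mutant tissue and 105 in WT tissue. Dcc (−1.27 ± 0.15), Slit1 (−1.41 ± 0.20), Unc5b (−1.45 ± 0.43), Robo1 (−0.75 ± 0.13), Plxna2 (−0.98 ± 0.10), Sema4c (−0.96 ± 0.17), Sema5b (−0.82 ± 0.19) and Sema4g (−0.63 ± 0.21) were the other falls. The falls of Unc5b and Robo1 depended on the probe set. Their other bright probe sets differed by −0.04 and 0.32, and neither gene passed with probe sets averaged. Other bright probe sets of Dcc, Slit1, Plxna2 and Sema5b were lower in culture too. Cell markers moved with preparation as well. Acta2, an actin of contractile and mesenchymal cells, was at log2 13.76 in both cultures, against 6.40 and 6.50 in mutant tissue and 6.16 in WT tissue. Of 8 pericyte and mesenchyme genes 5 were tested, of which 2 were higher and 1 lower in culture. The summed normalized signal of the 8 was 14433 in mutant culture and 14465 in WT culture, against 805.2 and 863.7 in mutant tissue and 914.1 in WT tissue. Acta2 alone made up most of the sum in culture, so the sum does not describe the other genes of this list. All 4 red blood cell genes were at the floor in mutant culture and 3 in WT culture. The part of these cells in the differences was not tested.

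**Figure D5:**
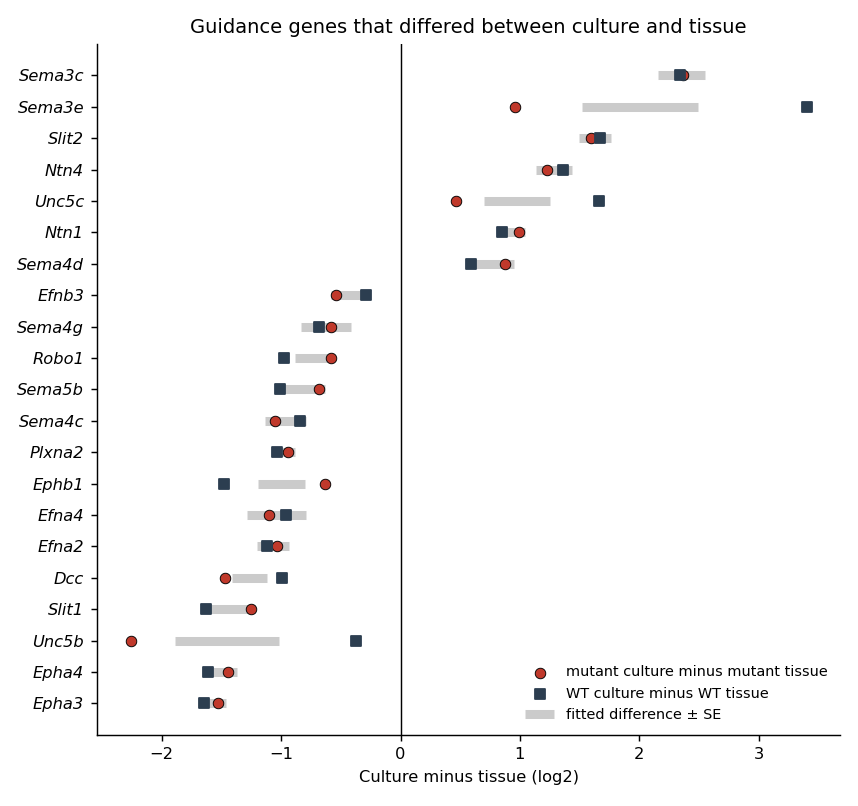
Culture minus tissue (x axis, log2) for the 21 genes that passed that test; circles are mutant arrays, squares WT arrays and grey bars the fitted difference ± SE. All 21 genes have both genotypes on the same side of 0, with genotypes far apart for Sema3e (0.96 in the mutant, 3.40 in WT), Unc5c (0.46 and 1.66, same order) and Unc5b (−2.26 and −0.37, same order).

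Partners of the guidance receptors were counted beside them. Of 22 co-receptor and adhesion genes tested, 8 were higher and 1 lower in mutant tissue, against 8.59% and 6.70% of all genes tested, and 0 passed across both preparations, where 9 had an unadjusted p under 0.05 (all genes 13.0%). Of 47 intracellular effectors, 12 were higher and 2 lower in tissue, and 1 (against 1.07% of all genes tested), the p21-activated kinase Pak3, passed across both (1.13, adjusted p = 0.0038). L1cam, an adhesion molecule that associates with neuropilin 1, rose by 1.41 ± 0.18 in tissue (adjusted p = 0.00030), and Neo1, a Dcc-related receptor, by 0.62 ± 0.12 (adjusted p = 0.0049). The adhesion gene that fell was Nrcam, a neuropilin 2 co-receptor (−0.64 ± 0.18, adjusted p = 0.032). Both lists had tissue medians above 0 (0.28 and 0.20, all genes 0.001). In culture, with 1 array against 1, the medians were 0.37 and −0.06 (all genes 0.009), and Nrcam differed by 0.75.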

How the data were processed

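RNA from 5 samples was measured on 5 Affymetrix arrays. The authors deposited linear intensity values, 1 for each of 45101 probe sets; from the values, all arrays share 1 scale, an equal 2% trimmed mean. The software and any detection calls are not given in the sources used here. The intensities were quantile normalized, set to at least the pooled 20th percentile (the floor, a signal of 5.15) and put on log2. Of the probe sets, 34945 had 1 gene symbol in the platform annotation, 932 had several and were not used, and 64 controls were left out. The brightest probe set stood for each of 18193 genes, and the 11063 genes with a mean above the pooled median (4.80 log2) were tested.

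Tests were run in limma (version 3.58.1, R 4.3.3). The prior variance followed intensity, and p-values were adjusted by Benjamini-Hochberg. Genotype in tissue used 3 arrays (1 residual degree of freedom, 10.89 prior). Genotype across both preparations and culture minus tissue came from a model of preparation and genotype over 5 arrays (2 residual, 5.95 prior), and the genotype by preparation term from a model of the 4 groups (1 residual, 8.57 prior). The scripts were tested on simulated data. Alternatives were the deposited scaling, a floor at the 10th percentile, 16 added to each value in place of a floor, no filter, no trend, averaged probe sets and leaving out each mutant tissue replicate.

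The members and lists were chosen with earlier results of these data known. Genes were named in full where past a threshold, 2-fold apart in culture, among the 3 highest or lowest in a comparison, or on a short list of guidance genes known from interneuron migration, partners where they passed across both preparations; other partners, genes below the filter, the cell markers and the Nrp2 sequence were chosen after their values were seen. Lists of targeted, MGE, progenitor, young neuron, pallial, striatal, diencephalic, oligodendrocyte, astrocyte, endothelial, mesenchymal, microglial and red blood cell genes were counted. In tissue, calls higher and lower were 1 and 0 of 3 pallial, 1 and 2 of 7 striatal, 2 and 0 of 5 diencephalic, 4 and 0 of 5 oligodendrocyte, 4 and 0 of 6 astrocyte, 0 and 4 of 7 MGE and 3 and 5 of 13 progenitor and cell cycle genes, and none of 4 endothelial, 5 mesenchymal and 4 microglial genes (2, 1 and 0 at an unadjusted p under 0.05); 1 of 3 red blood cell genes was lower. No protein sequences were used here, and some partner genes called in tissue are not reported here.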

Additional observations from a re-analysis of the deposited data

Results flagged for a closer look

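The genotype difference in culture differed from that in tissue for 7 genes by the interaction term of limma's model of the 4 groups. Values are the culture difference minus the tissue difference on the log2 scale. The culture effect was lower for Sema3e (−2.44, from −0.18 in culture and 2.26 in tissue), Nrp2 (−2.19, from 0.50 and 2.69), Sema3a (−1.79, from −1.44 and 0.35), Efnb2 (−1.49, from −1.47 and 0.02) and Sema6d (−1.19, from −0.04 and 1.15). It was higher for Sema3f (3.33, from 2.52 in culture and −0.82 in tissue) and Efna3 (2.16, from 2.23 and 0.07). The value of Sema3f was 2.68 without mutant tissue replicate 1 and 3.93 without replicate 2. Each value rests on 1 WT tissue array and on 1 culture array of each genotype.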

How the results depend on the processing

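No paired analysis was possible because the labels give no replicate numbers shared between groups. Keeping the deposited scaling, lowering the floor or adding 16 in place of a floor left each count of guidance genes within 1.5 times its value, although with 16 added 226 of all genes tested were 2-fold apart in culture, against 407. Without an intensity filter, guidance genes called were 0 across both preparations, 0 in tissue, 13 for culture minus tissue and 1 for genotype by preparation, 15 were 2-fold apart in culture, and 0 partners passed across both and 0 in tissue (all genes 0, 389, 1894, 584 and 2470). Without an intensity trend they were 0 across both, 0 in tissue and 0 for genotype by preparation, with 0 partners in either genotype test (all genes 4, 2 and 0). At an unadjusted p under 0.05 limma then had 12, 15 and 14 members. With probe sets averaged they were 0 across both, 5 in tissue and 0 for genotype by preparation, 5 were 2-fold apart in culture, and 5 partners passed in tissue (all genes 35, 489 and 4). Plxnb3 in culture reversed to 0.28 with probe sets averaged. With either mutant tissue replicate left out, 0 to 0 members passed across both preparations (all genes 35 and 36, against 118) and 16 to 17 for culture minus tissue; tissue and the genotype by preparation term then have no residual degrees of freedom, so they give values without a test. The calls for culture minus tissue of Efna4, Efnb3, Sema4d, Sema4g, Unc5b and Unc5c were lost in at least 1 of these runs. The cause of these changes was not tested. No detection calls were used, so levels near the floor have no known signal over background.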
